A study of Homo sapiens with 2 samples.

Results

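The LKB1 and AMPK complex genes were examined in NCI-H460, a cell line from a human large cell carcinoma of the lung, with and without an siRNA against CYP4F11, a cytochrome P450 that hydroxylates fatty acids. The set was chosen by gene symbol and holds 10 genes of the 58735 in the count table: STK11, STRADA, CAB39, PRKAA1, PRKAA2, PRKAB1, PRKAB2, PRKAG1, PRKAG2 and SIK1. All 10 were measured, meaning that their mean CPM (counts brought to the same library size) over both libraries was at least 1, as for 13942 genes in all. There was 1 library per group, with no replicate: siControl, labelled wild type and given no siRNA against CYP4F11, and siCYP4F11, labelled as a knockdown. Cells of both were collected 24 h after lipid transfection, and the labels give both the same batch. The design text of the series names NCI-H469, whereas the title and the sample labels name NCI-H460, and the labels were followed.

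LKB1, the product of STK11, is a kinase that becomes active when bound to a STRAD pseudokinase and an MO25 scaffold, encoded by STRADA and CAB39. It phosphorylates AMPK and a family of AMPK-related kinases that includes SIK1. AMPK is a trimer of a catalytic alpha, a scaffolding beta and a nucleotide-sensing gamma subunit, and it turns down fatty acid and sterol synthesis when cellular energy is low. NCI-H460 is known as an LKB1-deficient line with an inactivating STK11 mutation, which both groups share, so the values below describe mRNA and say nothing of LKB1 protein. In bulk RNA, fewer cells with a transcript and less transcript per cell cannot be told apart.

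The libraries held 16207785 (siControl) and 13002179 (siCYP4F11) counts. CYP4F11 itself had 3180 counts in siControl and 972 in siCYP4F11, or 197 and 74.5 CPM, which is 37.8% of the control level (95% interval 35.1% to 40.6%). Of the epithelial markers, KRT8, KRT18 and KRT19 were abundant, at 458 to 2383 TPM in siControl, whereas EPCAM and CDH1 had 0 to 8 counts. TPM here is the count per base of gene model, scaled to a common total. CDKN2A, which is deleted in this line, had 0 counts in both libraries. Of 10 leukocyte, endothelial and fibroblast markers, PTPRC, CD3E, PECAM1, CDH5 and VWF had 0 counts in both libraries, and the highest was PDGFRB with 72 and 65 counts. CD14 had 20 and 33 counts, past the 2-fold rule given below, and its part in any result was not tested.

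SIK1 needs its sequence shown first, because GRCh38 holds a near-identical copy, SIK1B, and the table counts them separately. SIK1 (ENSG00000142178) lies on the minus strand at chr21:43414483-43427189, and SIK1B (ENSG00000275993), described in the table as putative, on the plus strand at chr21:6111134-6123739. Over 4705 aligned bases their main GENCODE transcripts differed at 7 positions, of which 2 lay in the coding sequence of 2349 bases. These are C1844T and C1848T, counted from the A of the start codon, with the SIK1 base first and the SIK1B base last. Both lie in exon 13, in coding bases 1816 to 1876, at chr21:43417643-43417703 (minus strand) for SIK1 and chr21:6120558-6120618 (plus strand) for SIK1B on GRCh38. They are shown because they are the coding bases by which a read can be placed, with the differing bases in capitals:
SIK1: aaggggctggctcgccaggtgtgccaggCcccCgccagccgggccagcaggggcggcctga
SIK1B: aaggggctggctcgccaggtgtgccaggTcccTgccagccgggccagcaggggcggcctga
Of the 150-base words of the SIK1 transcript, 81.3% also occur in SIK1B, and of its 50-base words 92.2%. The sources used here do not say how reads that match both copies were counted.

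**Figure D1:**
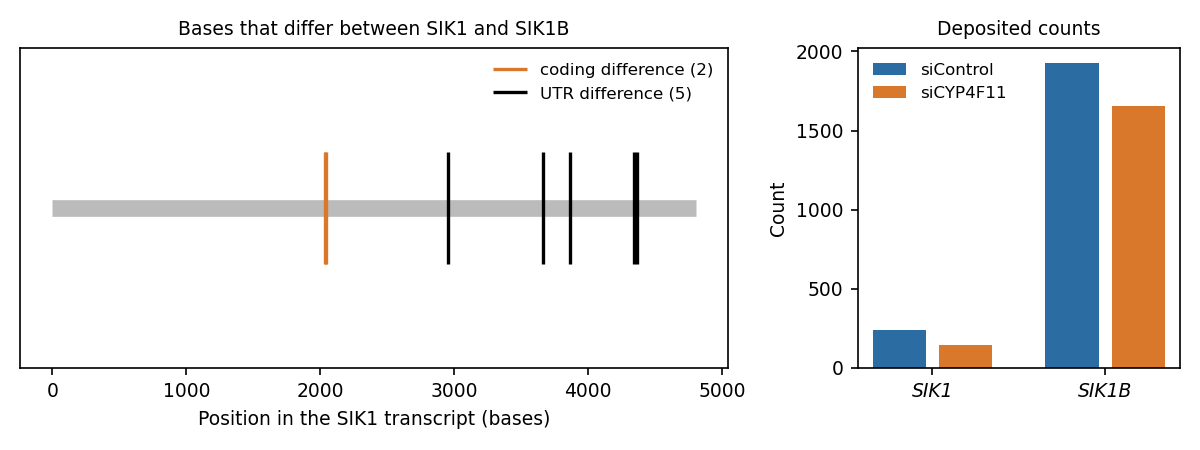
Left, the positions along the SIK1 transcript (bases) at which SIK1B differs, coding differences in orange and untranslated ones in black. Right, the deposited counts of each copy in siControl (blue) and siCYP4F11 (orange). The 7 differences run from position 2038 to position 4361, with neighbouring pairs drawn almost on top of each other, and SIK1B holds most counts of the pair, 1927 and 1657 against 241 and 142.

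The SIK1 gene is a textbook target of CREB, the cyclic AMP-responsive factor, whose coactivators (CRTC proteins) SIK kinases phosphorylate in turn. The 192 bases directly before the annotated gene, chr21:43427190-43427381 on the minus strand (RefSeq, GRCh38.p14), are shown for this reason, with matches to the short cyclic AMP response element TGACG, read on either strand as TGACG or CGTCA, in capitals:
SIK1: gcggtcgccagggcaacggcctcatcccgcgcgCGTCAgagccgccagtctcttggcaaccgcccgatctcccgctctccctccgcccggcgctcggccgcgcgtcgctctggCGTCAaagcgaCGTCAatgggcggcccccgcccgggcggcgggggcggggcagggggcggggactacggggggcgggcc
There were 3 matches. Among 35116 windows of 250 bases before a RefSeq start, 21.2% held at least 1 match, 4.76% at least 2 and 1.01% at least 3. RefSeq windows were found for 9 members, all but STRADA. Besides SIK1, PRKAG1 and STK11 held 2 matches each, and 1 of the 5 PRKAG2 windows held 1. The full palindrome TGACGTCA, which contains the short element on both strands, occurred in 1.65% of all windows and in 0 of the 14 windows of members. A match describes letters only and is no evidence of binding.

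By the 2-fold rule, 1 of the 10 members was called, STRADA, which was lower in the siCYP4F11 library. The rule asks for a log2 ratio (siCYP4F11 over siControl) of at least 1 in size and a 95% counting interval that excludes 0, and it called 1.96% of all measured genes (1.26% lower, 0.703% higher). The intervals cover counting error only, because no replicate spread exists, and no test was possible. The interval alone excluded 0 for 5 members, 3 higher and 2 lower, beside 37.8% of all measured genes (18.6% higher and 19.2% lower). That count was 6 with total counts, DESeq2 size factors or upper-quartile scaling, where PRKAG1 came in on the higher side. It was also 6 with a correction for GC content (described below for STK11), where PRKAG1 and PRKAA2 (-0.20, lower) came in and PRKAA1 (0.013) dropped out, and 4 with the near-identical copy added to SIK1. The median log2 ratio of the 10 members was 0.045, with 5 above 0 and 5 below, and that of all measured genes was -0.0055. Apart from STRADA and SIK1, the members lay between -0.029 and 0.19.

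**Figure D2:**
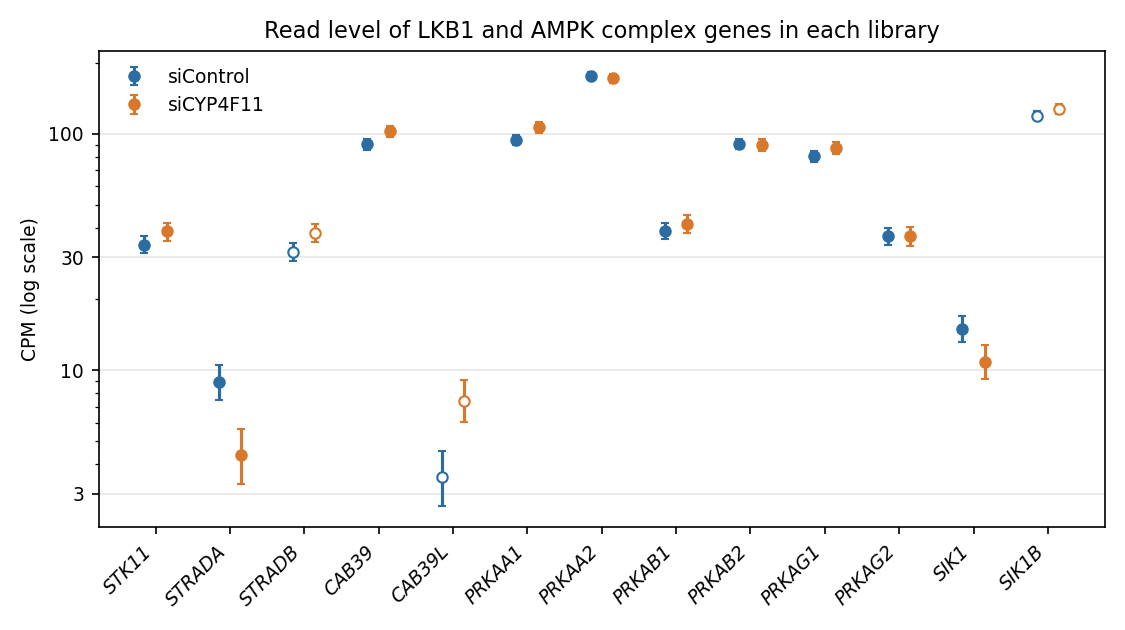
Level of each gene in CPM (log axis) in siControl (blue) and siCYP4F11 (orange), with exact 95% Poisson intervals of the single count. Filled points are the 10 members, and open points are STRADB, CAB39L and SIK1B. STRADA, at 8.92 and 4.37 CPM, and SIK1, at 14.9 and 10.9 CPM, are the members with the widest gap between libraries.

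Of the LKB1 complex, STK11 (ENSG00000118046, chr19:1177558-1228435, plus strand) had 548 counts in siControl and 504 in siCYP4F11, or 33.9 and 38.6 CPM. The siCYP4F11 library was slightly higher, at a log2 ratio of 0.19 (0.0082 to 0.36). Among 1700 measured genes of similar level (mean CPM within 0.8 to 1.25 times), 40.2% differed by at least as much. STK11 has a GC-rich transcript (65.8%), and over all measured genes log2 ratios decreased with transcript GC content (Spearman rho -0.32 across 13936 genes, which are not independent). After a correction for that relation STK11 stood at 0.32.

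STRADA, the pseudokinase that activates LKB1, had 144 counts in siControl and 57 in siCYP4F11, or 8.92 and 4.37 CPM. Its log2 ratio was -1.02 (-1.5 to -0.58), which is 49.2% of the control level (35.4% to 67.0%). Of 823 measured genes of similar level, 0.729% differed by at least as much. The call ended with the GC correction, at -0.95. STRADA (ENSG00000266173) lies on the minus strand at chr17:63682336-63741986. A second gene on the same strand, AC046185.1, covers 1970 of its 10860 exonic bases and had 0 counts in both libraries. Over the 34 coding transcripts of STRADA, a median of 78.7% of the bases (39.1% to 91.0%) lies in exons of AC046185.1, so the count may rest on the remaining bases, and the part of this overlap in the difference was not tested.

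The paralogue STRADB, which also binds LKB1, did not share that direction. It had 509 counts in siControl and 497 in siCYP4F11, at a log2 ratio of 0.27 (0.091 to 0.45), and it shares 20.7% of its 50-base words with other genes. It also shares 144 exonic bases with TRAK2 on the other strand, which had 5999 and 4926 counts. STRADA made up 7.79% of the length-scaled counts of the pair in siControl (6.52% to 9.24%) and 3.31% in siCYP4F11 (2.49% to 4.32%). These intervals did not overlap, and unrelated gene pairs were not examined. The size of the share depended on the gene length used: it was 18.0% and 8.16% with the longest coding transcript of each gene, and 22.1% and 10.3% of the unscaled counts. All 3 rest on the same counts, so the lower share in siCYP4F11, with intervals that do not overlap, follows under each of them by construction. The STRADA count may also rest on only part of its bases, as given above, and none of the 3 lengths allows for that.

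CAB39, which encodes the scaffold MO25 alpha, had 1457 counts in siControl and 1336 in siCYP4F11, or 90.3 and 102 CPM. At a log2 ratio of 0.18 (0.073 to 0.29) it was slightly higher in siCYP4F11, as were 18.6% of measured genes by their intervals. After the GC correction CAB39 stood at 0.11 (0.0021 to 0.22). The gene (ENSG00000135932) lies on the plus strand at chr2:230712845-230821075. CAB39L, its paralogue outside the set of 10, had 57 and 97 counts and passed the 2-fold rule on the higher side, at 1.07 (0.59 to 1.57). Of 830 genes of similar level 0.843% differed by at least as much. CAB39L was the minor gene of the pair, with CAB39 holding 96.0% (94.8% to 96.9%) of the pair's length-scaled counts in siControl and 92.8% (91.3% to 94.1%) in siCYP4F11.

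**Figure D3:**
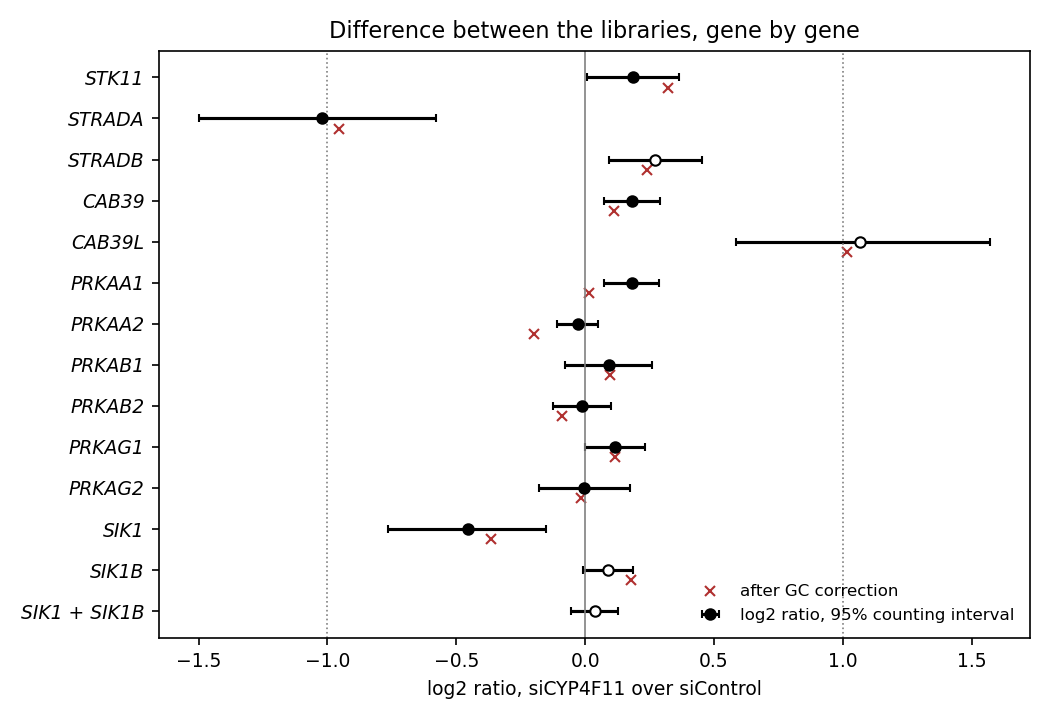
Log2 ratio of siCYP4F11 over siControl for each gene (points) with its 95% counting interval (bars), and the value after GC correction (red crosses). Filled points are the 10 members, open points are paralogues and the sum of SIK1 and SIK1B, and dotted lines mark 2-fold. STRADA at -1.02 and CAB39L at 1.07 lie just past the dotted lines, and the AMPK subunit genes lie between -0.029 and 0.18.

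The catalytic subunit genes of AMPK were among the more abundant members. PRKAA1 (alpha 1, ENSG00000132356, chr5:40759379-40798374, minus strand) had 1517 counts in siControl and 1390 in siCYP4F11, or 94.0 and 106 CPM. Its log2 ratio was 0.18 (0.074 to 0.29), and 0.013 after the GC correction, as its transcript is GC-poor (35.3%). PRKAA2 (alpha 2, ENSG00000162409, chr1:56645322-56715335, plus strand) had 2826 and 2240 counts, or 175 and 172 CPM. Its log2 ratio was -0.029 (-0.11 to 0.052), and -0.20 after the GC correction. The 2 genes have nearly the same GC content (35.2% for PRKAA2). The balance between them moved slightly towards alpha 1: PRKAA1 made up 43.3% of the length-scaled alpha counts in siControl (41.8% to 44.9%) and 46.9% in siCYP4F11 (45.3% to 48.6%). These counting intervals did not overlap, and there is no replicate spread to set them against. Other gene pairs were not examined, so how often such a move occurs is not known. With the longest coding transcript of each gene as the length, PRKAA1 came to 49.7% and 53.3%, so which alpha gene is the more abundant is not settled.

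The beta subunits hold the trimer together and bind glycogen, and the counting intervals of both genes included 0. PRKAB1 (beta 1, ENSG00000111725, chr12:119667753-119681630, plus strand) had 629 counts in siControl and 542 in siCYP4F11, a log2 ratio of 0.092 (-0.077 to 0.26). PRKAB2 (beta 2, ENSG00000131791, chr1:147155106-147172550, minus strand) had 1459 and 1170 counts, a log2 ratio of -0.012 (-0.12 to 0.10). PRKAB2 prevailed in both libraries, with PRKAB1 at 27.4% (25.5% to 29.3%) of the length-scaled beta counts in siControl and 28.8% (26.7% to 31.0%) in siCYP4F11. The size of that lead depended on the gene model. With the longest coding transcript of each gene as the length, PRKAB1 came to 47.2% (44.9% to 49.6%) and 49.0% (46.4% to 51.6%), so on that length the order in siCYP4F11 is not settled.

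The gamma subunits bind AMP and ATP, and the counting intervals of both genes included 0 with TMM scaling, that of PRKAG1 only just. PRKAG1 (gamma 1, ENSG00000181929, chr12:49002274-49018825, minus strand) had 1295 counts in siControl and 1134 in siCYP4F11, a log2 ratio of 0.11 (-0.0015 to 0.23). With total counts the interval of PRKAG1 excluded 0, at 0.13 (0.010 to 0.24), as it did with DESeq2 size factors, upper-quartile scaling and the GC correction. PRKAG2 (gamma 2, ENSG00000106617, chr7:151556111-151877125, minus strand) had 596 and 481 counts, a log2 ratio of -0.0026 (-0.18 to 0.17). Gamma 1 prevailed, at 77.8% (76.0% to 79.4%) and 79.2% (77.3% to 80.9%) of the length-scaled counts of these 2 genes. PRKAG3, the gamma subunit best known from skeletal muscle, had 0 counts in both libraries, and the floor of 3 counts corresponds to 0.186 CPM in siControl and 0.230 CPM in siCYP4F11. PRKAG1 shares 532 of its 4184 exonic bases with DDN-AS1 on the other strand, which had 9 and 5 counts. PRKAG2 shares 84 bases with PRKAG2-AS1, which had 25 and 7 counts, and the strand setting of the counting was not given.

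**Figure D4:**
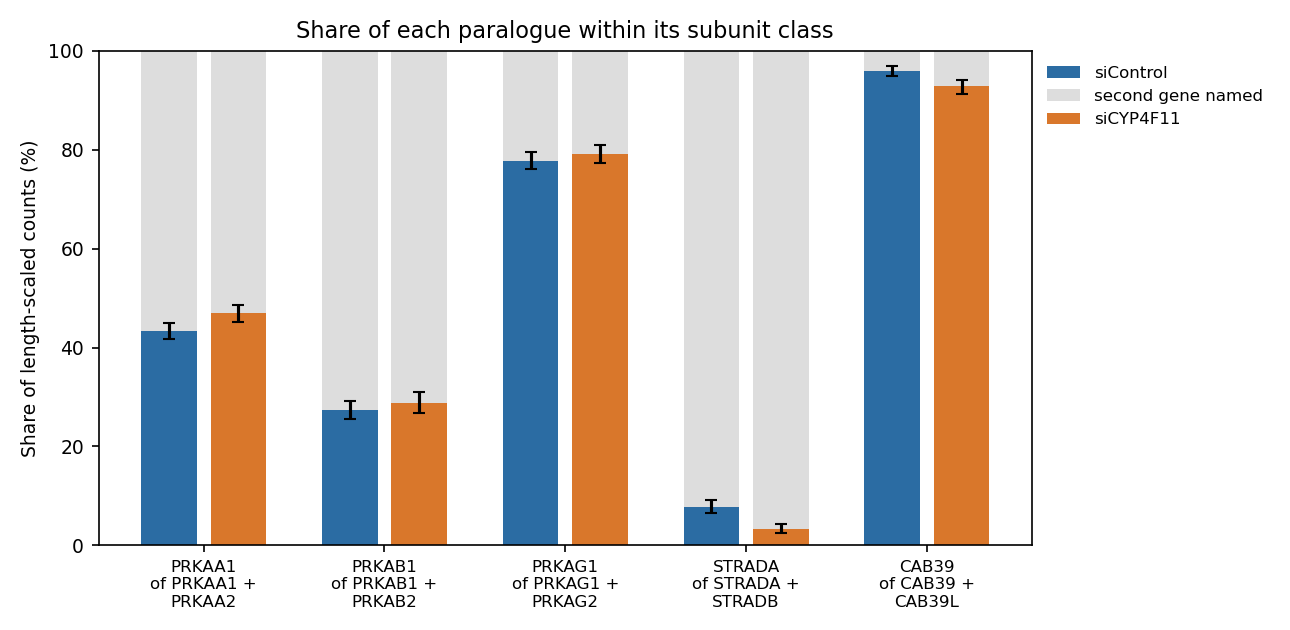
Share of the first-named gene of each pair in the pair's length-scaled counts (%), in siControl (blue) and siCYP4F11 (orange), with exact binomial 95% intervals carried to the length-scaled share. Grey is the other gene of the pair. The alpha, STRAD and MO25 pairs have intervals that do not overlap between libraries, and the beta and gamma pairs have intervals that do. These intervals cover counting error only. Other gene pairs were not examined, so there is no background for these overlaps. By another measure, 37.8% of all measured genes had a log2 ratio whose interval excluded 0.

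Per length, as given by the deposited gene models, the levels of the members spanned 61.1 to 2.62 TPM in siControl. In siControl, PRKAG1 (61.1 TPM), PRKAA2 (59.7), CAB39 (53.7), PRKAB2 (52.8) and PRKAA1 (45.6) formed the upper tier. PRKAB1 (19.9 TPM), PRKAG2 (17.5), STK11 (12.5) and SIK1 (9.03) were lower, and the STRADA entry was lowest at 2.62 TPM. The STRADA value may be too low, because its count may leave out bases shared with AC046185.1, as given above. Counting intervals of PRKAG1 and PRKAA2, of CAB39 and PRKAB2, and of PRKAB1 and PRKAG2 overlapped, so the order within these pairs is not settled. The tiers and the order hold for the deposited lengths only. With the longest coding transcript as the length, PRKAB1 came to 47.2% of the beta counts in siControl, so it was not clearly below PRKAB2. In siCYP4F11 the upper tier ran from 65.9 TPM for PRKAG1 to 51.5 for PRKAA1, with CAB39 (60.6) ahead of PRKAA2 (58.2). There the intervals of PRKAG1 and CAB39, of CAB39 and PRKAA2, and of PRKAB2 and PRKAA1 overlapped, and the lower places were the same. Summed by role in siControl, alpha subunits came to 105 TPM, beta to 72.7, gamma to 78.6, MO25 scaffolds to 55.9, STRAD adaptors to 33.6 and STK11 to 12.5. In siCYP4F11 the sums were 110, 73.2, 83.3, 65.3, 38.6 and 14.2 TPM, in the same order of roles. That order too holds for the deposited lengths only, since the sums were not taken with other lengths. For PRKAG1 the deposited length is 4184 bases and the longest coding transcript 1699. The STRAD sums carry the limit given for STRADA.

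SIK1 was the second member on the lower side, but its value depended on how its copy was treated. Its own entry had 241 counts in siControl and 142 in siCYP4F11, or 14.9 and 10.9 CPM, a log2 ratio of -0.45 (-0.77 to -0.15). Of 1170 genes of similar level, 10.9% differed by at least as much. SIK1B had 1927 and 1657 counts, a log2 ratio of 0.089 (-0.0070 to 0.18). With both added there were 2168 counts in siControl and 1799 in siCYP4F11, a log2 ratio of 0.037 (-0.054 to 0.13), so the lower value of SIK1 was not present in the sum. On the deposited lengths the sum stood at 88.2 and 90.4 TPM, above every other member, while the SIK1 entry alone stood at 9.03 and 6.56 TPM. The SIK1 entry held 11.1% of the pair's counts in siControl and 7.89% in siCYP4F11.

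Of 11 other kinases that LKB1 activates, all measured, 3 were above 0 and 8 below, with a median log2 ratio of -0.12, and 0 passed the 2-fold rule. Of all measured genes 49.2% were above 0 and 50.8% below. Without the GC correction, the interval excluded 0 for 1 kinase on the higher side and 4 on the lower. Of all measured genes these shares were 18.6% and 19.2%. The median of the kinases was -0.095 after the GC correction. MARK4, a kinase of microtubule-associated proteins, had 1662 and 1083 counts, at -0.31 (-0.42 to -0.20). BRSK2, a kinase of neuronal polarity, had 121 and 65 counts, at -0.59 (-1.05 to -0.14). The other SIK kinases, named after their values were seen, had intervals that included 0. SIK2 had 762 and 642 counts, at 0.059 (-0.095 to 0.21), and SIK3 had 352 and 247, at -0.20 (-0.45 to 0.034).

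Of 20 listed genes that act on AMPK from above, 18 were measured, 12 above 0 and 6 below, with a median log2 ratio of 0.14. After the GC correction 10 were above 0 and 8 below, with a median of 0.12. By the interval without the GC correction, 6 were higher and 5 lower, beside 18.6% and 19.2% of all measured genes, and 0 passed the 2-fold rule. SESN3, a sestrin that binds AMPK and restrains mTORC1, had 2810 counts in siControl and 2916 in siCYP4F11, at 0.36 (0.28 to 0.44). TRIM28, which takes part in the degradation of AMPK alpha 1 together with MAGE-A3 or MAGE-A6, had 6080 and 3754 counts, at -0.39 (-0.45 to -0.33). MAGEA3 and MAGEA6 had 0 counts in both libraries. CAMKK2, which phosphorylates AMPK in response to calcium and was named after its value was seen, had 765 and 533 counts, at -0.21 (-0.38 to -0.054). After the GC correction CAMKK2 stood at -0.16.

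Genes for AMPK substrates lay mostly below 0. All 21 were measured, 4 above 0 and 17 below, with a median log2 ratio of -0.12, and 7 above and 14 below after the GC correction, with a median of -0.084. By the interval without the GC correction, 3 were higher and 10 lower, beside 18.6% and 19.2% of all measured genes. Interval counts with the correction were not taken, so how far these counts follow the GC relation was not tested. By the 2-fold rule 0 passed. ACACB, the mitochondrial acetyl-CoA carboxylase that AMPK inhibits, had 234 counts in siControl and 117 in siCYP4F11, at -0.69 (-1.03 to -0.37). Its cytosolic counterpart ACACA, named after its value was seen, had 1827 and 1369 counts, at -0.11 (-0.21 to -0.0081). After the GC correction ACACA stood at -0.099. PFKFB2, which makes the activator of phosphofructokinase, had 144 and 174 counts, at 0.58 (0.25 to 0.91).

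Downstream of the SIK kinases, 11 genes for CRTC coactivators, CREB factors, their acetyltransferases and class IIa HDACs were listed, and 10 were measured. Of these 1 was above 0 and 9 below (2 and 8 after the GC correction), with a median log2 ratio of -0.19 under both. Without the GC correction the interval excluded 0 for 5, all lower, and interval counts with it were not taken. CRTC2, the 1 above 0 before the correction and named after its value was seen, stood at 0.17 (-0.0086 to 0.34). After the correction CRTC2 stood at 0.27. By the 2-fold rule 0 passed. Of all measured genes 50.8% were below 0, and by the interval 18.6% were higher and 19.2% lower. EP300, an acetyltransferase that works with CREB, had 1303 and 783 counts, at -0.43 (-0.56 to -0.30). HDAC4, a class IIa deacetylase held in the cytoplasm by SIK phosphorylation, had 1585 and 986 counts, at -0.38 (-0.49 to -0.26).

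The CREB and CRTC target genes themselves lay close to the other measured genes. Of 18 listed, 17 were measured, 7 above 0 and 10 below, with a median log2 ratio of -0.054, and -0.053 after the GC correction. LINC00473 was not analysed, because the count table holds no gene under that symbol. By the interval without the GC correction, 2 were higher and 5 lower, beside 18.6% and 19.2% of all measured genes, and 0 passed the 2-fold rule. NR4A3, an orphan nuclear receptor induced by cyclic AMP, had 559 counts in siControl and 331 in siCYP4F11, at -0.45 (-0.65 to -0.25). IRS2, an insulin receptor substrate, had 3773 and 2373 counts, at -0.36 (-0.44 to -0.29). CPS1, a urea cycle enzyme known for high expression in LKB1-deficient lung cancer cells and named after its value was seen, was abundant in both libraries, at 562 and 525 TPM, with a log2 ratio of -0.093 (-0.12 to -0.068).

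**Figure D5:**
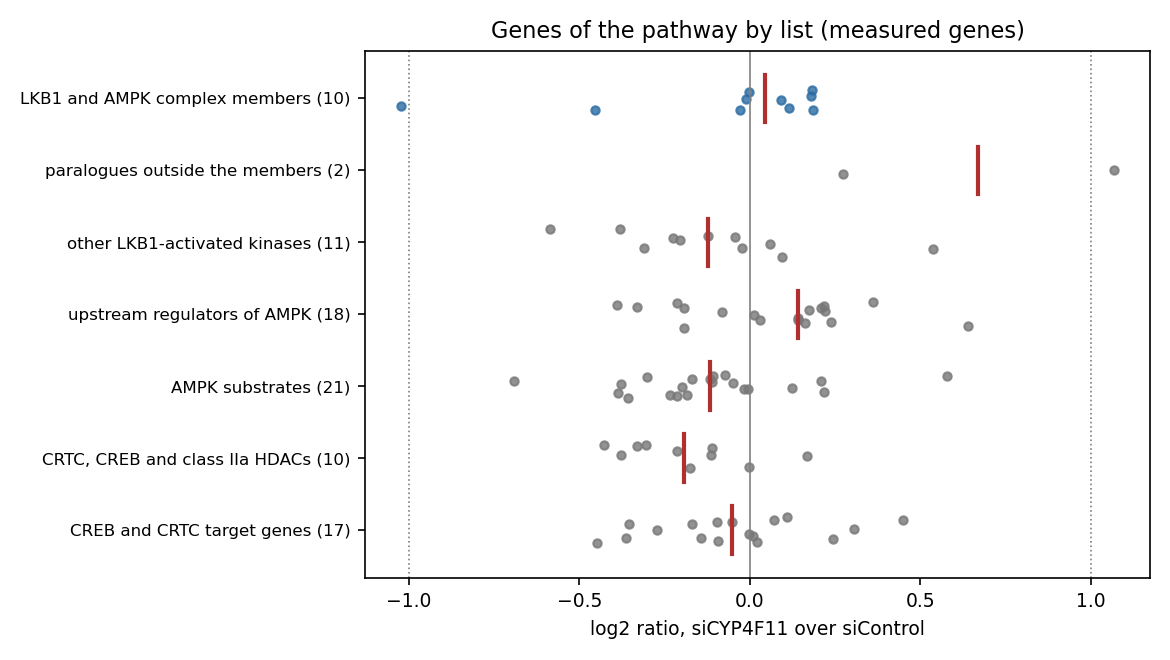
Log2 ratio of siCYP4F11 over siControl for each measured gene (points), by list, with the number of measured genes in brackets. Red bars are list medians and dotted lines mark 2-fold. Members are in blue, with STRADA at -1.02 and SIK1 at -0.45 apart from the other 8, and the medians of the larger lists lie between -0.19 and 0.14.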

How the data were processed

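Poly-A RNA of 2 NCI-H460 libraries was sequenced from strand-specific libraries, per the labels' protocols. The authors deposited whole-number counts per gene, not normalised, with gene lengths in bases as another column, which equal the union of exons in GENCODE 29 for all 58735 genes. Per the submitters' processing notes, the build was GRCh38 and the tools were edgeR 4.0.16, featureCounts 2.0.6, HISAT2 2.2.1 and fastp, with parameters and strand setting not given in the sources used here. Library sizes were scaled by TMM in edgeR 4.0.16 (factors 0.996 and 1.004). Log2 ratios were taken with 0.5 added to each count, and their 95% intervals from the Clopper-Pearson bounds on the fraction of a gene's counts found in siCYP4F11. With 1 library per group no p-value was computed, and values compare these libraries only. Intervals and floors cover counting error only and treat reads as independent. PCR reads lacking molecular identifiers do not count independent molecules, so the intervals may be too narrow even for counting error. Simulated counts with known folds were used to test the 2-fold rule. These were Poisson counts without replicate spread, and every fold put in was larger than 2-fold. The GC correction was a lowess on the GC content of each gene's longest transcript (span 0.3).

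The members and lists were chosen with earlier results of these data known. All members were named. Of each other list, genes past the 2-fold rule were named, or else the 2 whose interval bound nearest 0 was largest. Alternatives were total counts, DESeq2 1.42.0 size factors, upper-quartile scaling, 2 added to each count, other filters and folds, the GC correction, SIK1 with SIK1B added and other lengths. Shares of the STRAD and MO25 genes were added after the data were seen. Further sample columns numbered 0. Calculations used Python 3.11.15, scipy 1.17.1 and statsmodels 0.14.6.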

Additional observations from a re-analysis of the deposited data

How the results depend on the processing

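STRADA alone among the members passed the 2-fold rule under each scaling, filter and fold tried, and 0 members passed it with the GC correction. The mean over members was -0.077 where the median was 0.045, since STRADA weighs on the mean, and the median with the GC correction was -0.00095. Over all genes, no filter gave 345 higher and 476 lower, a mean CPM of at least 5 gave 5 and 19, and 1.5-fold gave 284 and 479, against 98 and 175, which follows from more or fewer genes or a laxer rule. CYP4F11 stayed lower under the 5 alternatives run for it (total counts, DESeq2 size factors, upper quartile, 2 added to each count and the GC correction). Subunit shares depended on the length. With the longest coding transcript, siControl first, PRKAA1 came to 49.7% and 53.3% of alpha, PRKAB1 to 47.2% and 49.0% of beta and PRKAG1 to 80.9% and 82.1% of gamma. Unscaled counts gave 34.9% and 38.3%, 30.1% and 31.7%, and 68.5% and 70.2%. The interval excluded 0 for 5 members, 6 with total counts, DESeq2 size factors, upper quartile or the GC correction, and 4 with SIK1B added. Of 51 alternative values of single members, 47 stayed in their counting interval and on the same side of the rule. The others were STRADA (-0.95), PRKAA1 (0.013) and PRKAA2 (-0.20) with the GC correction, and SIK1 with SIK1B added (0.037). The 47 are no measure of robustness. Another scaling moves all genes alike, by far less than the width of any member's interval, and 2 added to each count moved members little. Under these alternatives, staying in the interval was settled beforehand. Only the GC correction and the addition of SIK1B could take a member out of it. No paired analysis was possible because each group has 1 library. Depth limits STRADA most, at 144 and 57 counts.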
